A study of Mus musculus with 12 samples.

Results

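A set of 40 genes of DNA replication and S phase was followed in sorted and cultured mouse hematopoietic stem cells (HSCs) with and without the leukemia fusion ETV6-RUNX1. The 40 genes were the entries of the deposited expression table whose gene symbol was on a fixed list, 1 gene ID each, out of 40481 genes in the table. They were read in 6 roles, which were origin licensing and the replicative helicase (9 genes), polymerases, clamp and fork proteins (10), nucleotide supply (3), chromatin assembly and maintenance (9), repair (7) and control of the G1 to S transition (2). The 12 libraries formed 4 groups of 3, namely WT HSCs from bone marrow at 8 weeks, ETV6-RUNX1 HSCs from bone marrow at 8 weeks, WT HSCs from fetal liver at E14.5 and ETV6-RUNX1 HSCs from fetal liver at E14.5. The fusion was inducible with doxycycline, a tetracycline analog. After sorting, cells of all 4 groups, WT included, were expanded ex vivo over 3 days in the presence of doxycycline at 1 µg/mL, so that no group shows the cells as isolated or without the drug. The promoter and locus of the inducible fusion, the sex and number of animals behind each library and whether animals were pooled are not given in the sources used here, so the p-values measure the spread between these libraries, which may be technical.

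Before a cell can copy its genome, the MCM helicase ring is loaded at origins by the origin recognition complex with Cdc6 and Cdt1, and geminin prevents loading a further time. In S phase, Cdc45 and the GINS complex join the ring to make the active helicase, polymerase alpha-primase starts each strand, and polymerases held by the PCNA clamp extend it while ribonucleotide reductase and thymidylate synthase supply the precursors and histone chaperones rebuild chromatin. Many of these genes are transcribed at the G1 to S transition under E2F factors, so their RNA is widely read as a sign of cycling cells; HSCs are mostly quiescent in the animal and enter the cycle in culture.

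Library totals ranged from 32316730 to 64483920 reads, and a floor of 3 reads equalled 0.0465 to 0.0928 CPM, reads scaled to a common library total. The 40 genes lay far above it, between 3.48 and 669 CPM in any library, and all 40 were among the 14271 genes tested, those that reached 1 CPM in 3 or more libraries. Floors cover counting error only. The labels could be checked through Runx1, which stood at 86.7 to 105 CPM in WT and 143 to 194 CPM in ETV6-RUNX1 bone marrow, and at 110.4 to 136 CPM in WT and 218 to 244 CPM in ETV6-RUNX1 fetal liver; reads of the fusion and of the endogenous gene cannot be told apart here. All 9 HSC markers were above the floor in every group, with summed levels of 1661 to 2478 CPM in WT and 2768 to 3030 CPM in ETV6-RUNX1 bone marrow, and of 1561 to 1915 CPM in WT and 3873 to 3989 CPM in ETV6-RUNX1 fetal liver. Ly6a had the largest difference in means, from 90.5 to 504 CPM in bone marrow and from 19.1 to 880 CPM in fetal liver. Kit (318 against 361.5 CPM) and Slamf1 (66.1 against 74.0 CPM) had lower means in ETV6-RUNX1 bone marrow, where the other markers had higher ones. No mean of this list was lower in ETV6-RUNX1 fetal liver. The 6 megakaryocyte markers, none at the floor, summed to 3089 to 4575 CPM in WT and 7221 to 7929 CPM in ETV6-RUNX1 fetal liver, and to 1374 to 1835 CPM in WT and 475 to 2108 CPM in ETV6-RUNX1 bone marrow. Pf4 was the largest part, with fetal liver means of 2472 and 4816 CPM, and was at 530 ± 596 CPM (SD, n = 3) in ETV6-RUNX1 bone marrow. Gp9 of this list had a lower mean in ETV6-RUNX1 in fetal liver (213 against 387 CPM) and in bone marrow (20.5 against 118 CPM). Granulocyte and monocyte markers (8 genes) summed to 219 to 296 CPM in WT and 46.7 to 58.5 CPM in ETV6-RUNX1 fetal liver, and to 153 to 332 CPM in WT and 102 to 128 CPM in ETV6-RUNX1 bone marrow. In fetal liver S100a8 and S100a9 were at or under the floor in both genotypes, Ctsg and Elane in ETV6-RUNX1 and Ly6c2 in WT. Csf1r of the same list had a higher mean in ETV6-RUNX1 (10.02 CPM against 0.824 CPM). The 7 erythroid markers, none at the floor in all 3 libraries of a group, summed to 729 to 1010 CPM in WT and 1412 to 2188 CPM in ETV6-RUNX1 fetal liver, and to 234 to 518 CPM and 420.4 to 633 CPM in bone marrow. Most of the sum was Hbb-bt (means of 815 and 1611 CPM in fetal liver), and Klf1 had a lower mean in ETV6-RUNX1 there (0.175 against 0.654 CPM). The 5 endothelial and stromal markers, likewise, summed to 69.0 to 98.0 CPM in WT and 139 to 172 CPM in ETV6-RUNX1 fetal liver, and to 62.6 to 94.0 CPM and 87.3 to 93.0 CPM in bone marrow. This list was mixed in fetal liver. Means in ETV6-RUNX1 were higher for Pecam1 (140.7 against 69.7 CPM), Cdh5 (15.5 against 6.36 CPM) and Col1a1 (0.210 against 0.139 CPM). They were lower for Pdgfrb (0.229 against 5.38 CPM) and Col1a2 (0.585 against 0.735 CPM). The part of these other programs in the results below was not tested. Xist was at most 1.27 CPM in the 6 bone marrow libraries and at least 51.7 CPM in the 6 fetal liver libraries, so the sex make-up of the libraries and their source cannot be told apart. Ddx3y, a gene of the Y chromosome, was at 68.6 to 140.2 CPM in bone marrow, at 23.5 to 41.5 CPM in WT and at 69.1 to 75.2 CPM in ETV6-RUNX1 fetal liver, where Xist overlapped between the genotypes (54.4 to 89.3 CPM and 51.7 to 70.1 CPM). The fetal liver libraries thus held both RNAs, Ddx3y moved with the genotype there, and the part of sex make-up in the fetal liver comparison was not tested.

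In fetal liver, replication and S phase genes were lower with ETV6-RUNX1. By limma on log2(CPM + 1), with p-values adjusted by the Benjamini-Hochberg method over all genes tested and a threshold of 0.05, 22 of the 40 fell and 0 rose. Among all genes tested, 18.3% were called lower and 24.8% higher in this comparison, 43.1% in all. Of the 40 log2 fold changes, 39 were negative, with a median of -0.59 against a median of 0.08 over all genes tested. The 3 WT and the 3 ETV6-RUNX1 libraries did not overlap, with WT higher, for 24 of the 40, and with ETV6-RUNX1 higher for 0, where the same held for 23.3% and 32.3% of all genes tested. Summed over the 40 genes, the level was 5833 ± 419 CPM (SD, n = 3) in WT and 3847 ± 361 CPM in ETV6-RUNX1. In bulk RNA, fewer cells in S phase and less of these RNAs per cell cannot be told apart. By role, 7 of 10 fork genes, 6 of 9 licensing genes, 2 of 3 nucleotide genes, 1 of 2 G1 to S genes, 4 of 9 chromatin genes and 2 of 7 repair genes were called lower. These shares were not tested against each other.

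In bone marrow the calls had the same direction and the median was nearer to 0, and the calls depended on 1 library and on the scaling. With limma, 13 of the 40 fell and 0 rose, against 4.93% of all genes called lower and 14.4% called higher (19.4% in all). The median log2 fold change of the 40 was -0.40, that of all genes 0.13, and 33 of 40 were negative. The libraries did not overlap, with WT higher, for 14 genes, against 10.9% of all genes, and with ETV6-RUNX1 higher for 0, against 23.6%. The summed level was 7160 ± 747 CPM (SD, n = 3) in WT and 5401 ± 782 CPM in ETV6-RUNX1. By role, 3 of 9 licensing genes, 4 of 10 fork genes, 2 of 3 nucleotide genes, 2 of 9 chromatin genes, 1 of 7 repair genes and 1 of 2 G1 to S genes were called lower. Without ETV6-RUNX1 bone marrow replicate 2, which had the lowest value of its group for 31 of the 40 genes, only Cdca7 and Pcna remained called (2 genes, median -0.29), and 2.24% of all genes were called lower. The adjusted p of the other 11 ran from 0.0502 to 0.130. Leaving out another single bone marrow library also ended the calls of Cdc45 (ETV6-RUNX1 replicate 1), Nasp (WT replicate 1 or 3), Rpa2 (WT replicate 1 or 2), Rrm1 (WT replicate 2 or 3, ETV6-RUNX1 replicate 3), Rrm2 (WT replicate 3) and E2f8 (any but WT replicate 1), with limma adjusted p from 0.0512 to 0.162. With median-of-ratios scaling, which brought the median of all genes from 0.13 to -0.00101, 24 of the 40 were called lower, against 9.79% of all genes.

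Of the 22 genes called in fetal liver, 12 (54.5%) were also called in bone marrow, where they made up 92.3% of the 13 calls: Cdc45, Cdc6, Mcm5, Pcna, Prim1, Rpa2, Tipin, Rrm1, Rrm2, Cdca7, Nasp and Rad51ap1. These 2 comparisons share no library in their means, but the fit takes the spread of each gene from all 12 libraries. The SE of a gene was therefore the same in both, and the calls are not independent. How many of all genes tested were called lower in both sources was not counted. Called in fetal liver alone were Gins2, Gmnn, Mcm2, Clspn, Fen1, Rfc2, Casp8ap2, Chaf1b, Exo1 and Ccne2, and called in bone marrow alone was E2f8. The other 17 passed in neither. Whether an effect differed between the sources was tested separately.

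**Figure D1:**
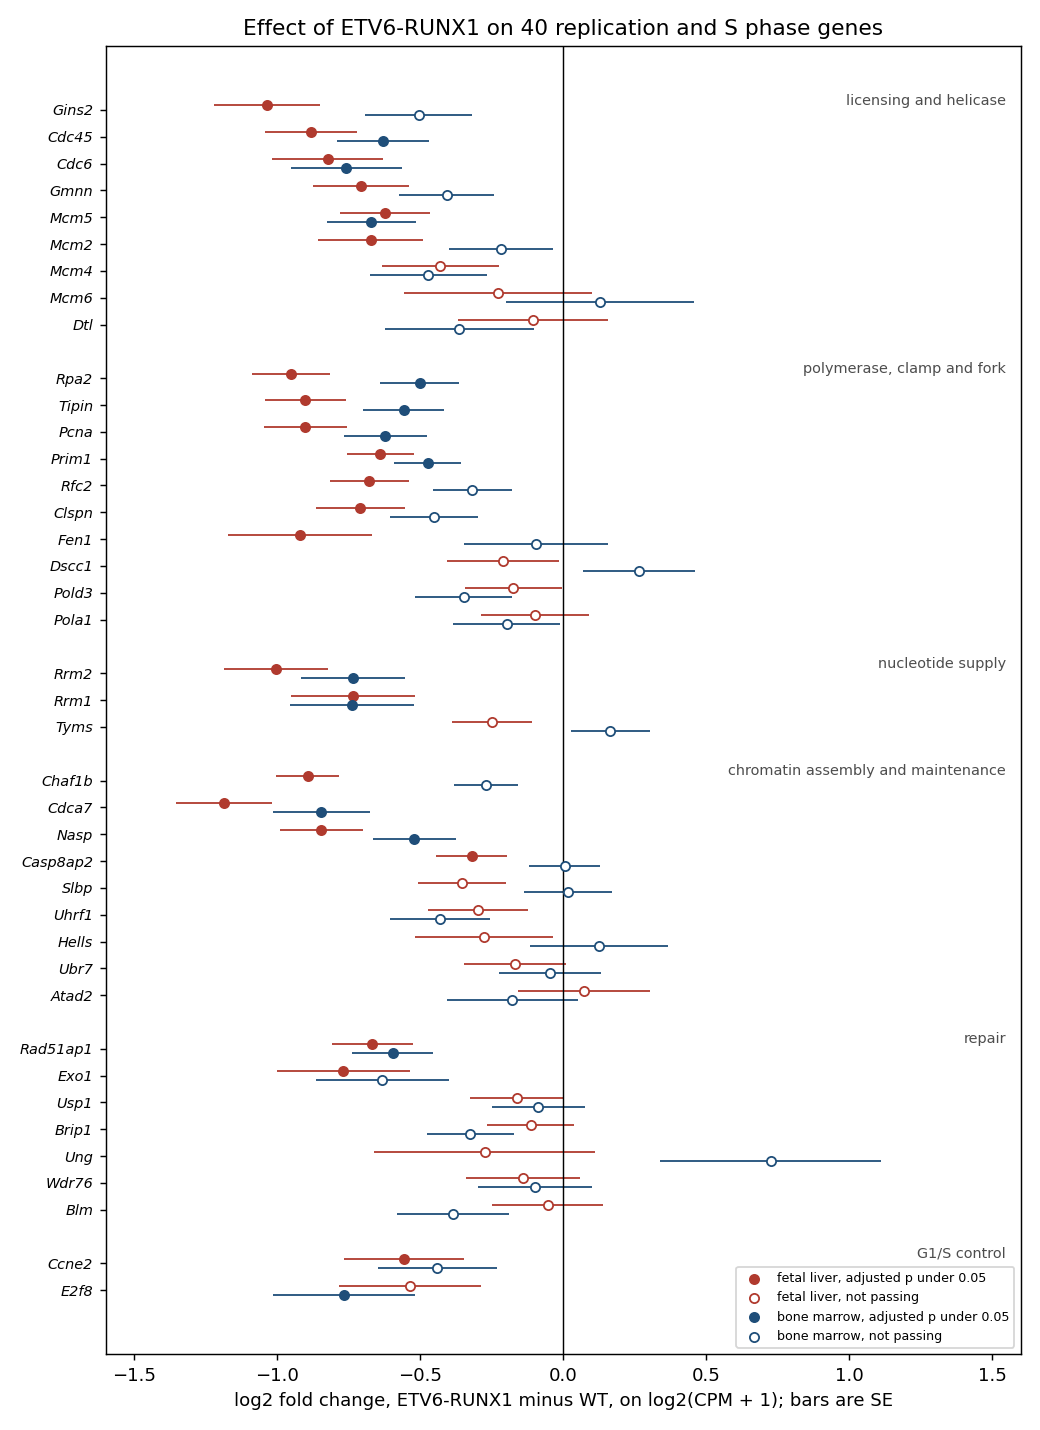
Log2 fold change of ETV6-RUNX1 minus WT for each of the 40 genes (horizontal axis, log2(CPM + 1) scale, bars are SE from limma), by role, in fetal liver (red) and bone marrow (blue). Filled points have an adjusted p under 0.05, which 22 genes had in fetal liver and 13 in bone marrow, all to the left of 0; Atad2 in fetal liver and Ung in bone marrow are the points farthest to the right in their source.

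The promoter windows of the members were read for E2F words, since E2F sites are the shared regulatory element this gene set is best known for. RefSeq windows on GRCm38.p6, from 250 bases before to 50 bases after a start site, were matched by symbol for 30 of the 40 genes. The words searched were TTTCGCGC, TTTGGCGC, TTTCCCGC and TTTGCCGC, exact, on both strands, where matches may overlap. The windows, of 300 bases each, of 12 of the 30 genes (40%) held at least 1 of them, against 4.74% of the 9988 tested genes with a window and 2.605% of all 27025 genes with a window. The words were in windows of 4 of 6 licensing, 5 of 8 chromatin and 3 of 7 fork genes, and in 0 of 3 nucleotide, 0 of 5 repair and 0 of 1 G1 to S genes. Among members called lower in fetal liver, 5 of 16 (31.2%) held a word, and among those not called, 7 of 14 (50%); the difference between these shares was not tested. The CCAAT box (CCAAT, both strands) was in windows of 21 of the 30 (70%) against 43.0% of tested genes with a window, and the word TTTGAA, known as the CHR element, in 6 of 30 (20%) against 14.6%. A match is a description of these letters and not a binding site.

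Windows are printed 5′ to 3′ on the gene's strand, with E2F words in capitals. The first 4 belong to the members with a window and the smallest p in fetal liver, and Blm is shown as the member with the largest p there. Mcm5 and Mcm6 were added after the matches were seen, as helicase subunits whose windows hold more than 1 word. In the order printed, the windows lie at chr16:93883651-93883950 (plus strand), chr2:72475969-72476268 (plus), chr4:132768110-132768409 (plus), chr2:132253131-132253430 (minus), chr7:80534949-80535248 (minus), chr8:75109259-75109558 (plus) and chr1:128359656-128359955 (minus).
Chaf1b: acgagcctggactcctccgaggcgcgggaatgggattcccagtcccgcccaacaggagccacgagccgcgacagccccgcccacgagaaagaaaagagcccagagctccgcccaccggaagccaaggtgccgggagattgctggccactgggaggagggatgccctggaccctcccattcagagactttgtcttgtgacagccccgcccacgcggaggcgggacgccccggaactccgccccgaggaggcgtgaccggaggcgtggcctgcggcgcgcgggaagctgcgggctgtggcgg
Cdca7: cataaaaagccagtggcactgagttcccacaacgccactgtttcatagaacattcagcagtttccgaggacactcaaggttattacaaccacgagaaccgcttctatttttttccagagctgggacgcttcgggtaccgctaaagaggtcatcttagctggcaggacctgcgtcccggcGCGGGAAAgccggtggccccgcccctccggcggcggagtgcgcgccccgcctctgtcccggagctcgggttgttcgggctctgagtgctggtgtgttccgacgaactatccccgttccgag
Rpa2: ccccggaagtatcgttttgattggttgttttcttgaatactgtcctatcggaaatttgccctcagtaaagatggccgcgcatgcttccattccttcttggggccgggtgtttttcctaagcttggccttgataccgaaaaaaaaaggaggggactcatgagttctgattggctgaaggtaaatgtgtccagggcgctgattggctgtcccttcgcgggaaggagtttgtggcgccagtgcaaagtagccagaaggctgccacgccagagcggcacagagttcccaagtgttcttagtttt
Pcna: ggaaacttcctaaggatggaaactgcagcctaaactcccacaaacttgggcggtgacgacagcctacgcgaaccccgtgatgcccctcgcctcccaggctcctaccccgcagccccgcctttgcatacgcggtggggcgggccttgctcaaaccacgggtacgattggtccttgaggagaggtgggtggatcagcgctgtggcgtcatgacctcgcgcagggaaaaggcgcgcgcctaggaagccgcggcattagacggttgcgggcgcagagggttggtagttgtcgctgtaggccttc
Blm: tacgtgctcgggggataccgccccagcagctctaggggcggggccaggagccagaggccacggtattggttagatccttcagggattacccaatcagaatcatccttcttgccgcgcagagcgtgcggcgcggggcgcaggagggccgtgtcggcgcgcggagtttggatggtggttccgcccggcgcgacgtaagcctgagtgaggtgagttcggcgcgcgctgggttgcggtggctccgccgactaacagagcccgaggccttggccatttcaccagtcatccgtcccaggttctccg
Mcm5: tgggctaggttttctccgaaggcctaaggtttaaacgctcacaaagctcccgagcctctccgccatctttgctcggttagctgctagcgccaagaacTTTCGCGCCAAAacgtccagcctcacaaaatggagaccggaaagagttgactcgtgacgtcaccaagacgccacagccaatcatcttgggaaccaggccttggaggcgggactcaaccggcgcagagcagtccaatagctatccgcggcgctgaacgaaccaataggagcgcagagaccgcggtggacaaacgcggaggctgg
Mcm6: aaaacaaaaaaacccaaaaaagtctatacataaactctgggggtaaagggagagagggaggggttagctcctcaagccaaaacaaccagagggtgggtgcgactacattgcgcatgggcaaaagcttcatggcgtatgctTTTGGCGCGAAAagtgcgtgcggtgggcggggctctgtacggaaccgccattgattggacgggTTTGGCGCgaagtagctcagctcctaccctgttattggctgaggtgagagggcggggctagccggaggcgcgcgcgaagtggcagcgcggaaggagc
Cdca7 has 1 word and the windows of Chaf1b, Rpa2, Pcna and Blm have none of these exact words. The capitals in Mcm5 are 2 words on opposite strands that overlap, starting 153 and 149 bases before the start site. Mcm6 has 3, of which those starting 110 and 106 bases before the start site overlap and the other starts at 47 bases. Of these helicase subunits, Mcm5 fell in both sources and Mcm6 passed the test in neither.

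Among the licensing and helicase genes, the partners that activate the MCM ring showed the largest falls in fetal liver. Gins2, a subunit of the GINS complex, stood at 90.9, 99.3 and 98.6 CPM in the 3 WT and at 45.7, 45.0 and 48.6 CPM in the 3 ETV6-RUNX1 fetal liver libraries. The ranges were far apart, and the log2 fold change was -1.04 ± 0.19 (SE; limma adjusted p = 0.000523). In bone marrow, Gins2 was at 109, 83.6 and 79.8 CPM in WT and 62.0, 47.1 and 85.7 CPM in ETV6-RUNX1; replicate 3 of the latter lay within the WT range, and the change of -0.51 ± 0.19 did not pass (adjusted p = 0.0701). Cdc45, the other activator of the ring, was at 71.4, 84.2 and 76.6 CPM in WT and 49.9, 42.9 and 33.3 CPM in ETV6-RUNX1 fetal liver, and at 94.6, 84.1 and 88.5 CPM in WT and 53.5, 50.9 and 68.4 CPM in ETV6-RUNX1 bone marrow. Its groups did not overlap in either source, and it fell with log2 fold changes of -0.88 ± 0.16 in fetal liver (adjusted p = 0.000623) and -0.63 ± 0.16 in bone marrow (adjusted p = 0.0159). Cdc6, which loads the ring at origins, was at 108, 114 and 90.4 CPM in WT and 67.5, 63.9 and 45.7 CPM in ETV6-RUNX1 fetal liver. In bone marrow Cdc6 was at 122, 144 and 139 CPM in WT and 98.6, 58.3 and 86.4 CPM in ETV6-RUNX1. Again no library of one genotype reached the other, and the log2 fold changes were -0.82 ± 0.19 (adjusted p = 0.00364) and -0.76 ± 0.19 (adjusted p = 0.0158).

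Of the MCM subunits, some passed the test and others did not. Mcm5 fell in both sources, with log2 fold changes of -0.62 ± 0.16 in fetal liver (limma adjusted p = 0.00533) and -0.67 ± 0.16 in bone marrow (adjusted p = 0.00978). Mcm2 fell in fetal liver (-0.67 ± 0.18, adjusted p = 0.00895), while its bone marrow value of -0.22 ± 0.18 did not pass. Mcm4 had values of -0.43 ± 0.21 and -0.47 ± 0.21 and Mcm6 of -0.23 ± 0.33 and 0.13 ± 0.33 in fetal liver and bone marrow, none of which passed. Mcm6 varied widely within groups, at 173, 511 and 519 CPM in WT bone marrow and 372, 399 and 247 CPM in WT fetal liver, and had the largest SE of the licensing genes. Whether the changes of the subunits differed from each other was not tested. Gmnn (geminin), the inhibitor of licensing, fell in fetal liver from 99.5, 129 and 129.9 CPM to 75.7, 68.4 and 73.1 CPM (-0.71 ± 0.17, adjusted p = 0.00366) and had -0.41 ± 0.17 in bone marrow. Dtl, the receptor through which Cdt1 is marked for destruction in S phase, did not pass in either source (-0.11 ± 0.26 and -0.36 ± 0.26).

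At the fork, the clamp, the single-strand binding protein and the fork protection complex were lower in both sources. Rpa2, a subunit of the protein that coats single-stranded DNA, was at 187, 195 and 188 CPM in WT and 98.8, 109.8 and 86.0 CPM in ETV6-RUNX1 fetal liver. In bone marrow Rpa2 was at 258, 239 and 227 CPM in WT and 183, 140.2 and 191 CPM in ETV6-RUNX1. No ETV6-RUNX1 library reached the WT range, with log2 fold changes of -0.95 ± 0.14 (limma adjusted p = 9.31e-05) and -0.50 ± 0.14 (adjusted p = 0.0217). Tipin, which with Timeless stabilizes the fork, was at 231, 275 and 280.4 CPM in WT and 144, 136 and 138 CPM in ETV6-RUNX1 fetal liver. The bone marrow levels were 318, 252 and 284 CPM in WT and 200.1, 160.1 and 222 CPM in ETV6-RUNX1. It fell with log2 fold changes of -0.90 ± 0.14 (adjusted p = 0.000179) and -0.56 ± 0.14 (adjusted p = 0.0149), with the 3 ETV6-RUNX1 fetal liver libraries close together. Pcna, the sliding clamp, was at 233, 259 and 284 CPM in WT and 137, 142 and 134 CPM in ETV6-RUNX1 fetal liver. In bone marrow it was at 354, 275 and 315 CPM in WT and 214, 166 and 236 CPM in ETV6-RUNX1. Its groups were separate in each source (-0.90 ± 0.15, adjusted p = 0.000229, and -0.62 ± 0.15, adjusted p = 0.01). The level of Pcna is uncertain in one respect, since its pseudogene Pcna-ps2 was listed at 17.6, 27.5 and 29.7 CPM in WT and 38.9, 32.5 and 48.1 CPM in ETV6-RUNX1 fetal liver, and at 35.2, 26.9 and 33.1 CPM in WT and 69.8, 43.6 and 86.4 CPM in ETV6-RUNX1 bone marrow, opposite in direction to Pcna, and the counting may have split reads between them. Whether the groups of Pcna stay separate, or its calls hold, with the reads of Pcna-ps2 added was not tested.

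Of the other fork genes, Prim1, the primase catalytic subunit, fell in both sources (-0.64 ± 0.12 in fetal liver, limma adjusted p = 0.000615; -0.47 ± 0.12 in bone marrow, adjusted p = 0.0132). Rfc2 of the clamp loader, Clspn (claspin), which relays the checkpoint signal to Chk1, and Fen1, the flap nuclease that trims lagging-strand fragments, fell in fetal liver with log2 fold changes of -0.68, -0.71 and -0.92, and did not pass in bone marrow (-0.32, -0.45 and -0.10). Fen1 was at 11.1, 13.8 and 13.6 CPM in WT and 6.98, 3.48 and 9.78 CPM in ETV6-RUNX1 fetal liver, and the annotation places it opposite Tmem258 and Gm10143. Pola1, the catalytic subunit of polymerase alpha, Pold3, a subunit of polymerase delta, and Dscc1, a subunit of the alternative clamp loader, passed in neither source. Their fetal liver values were -0.10 ± 0.19, -0.17 ± 0.17 and -0.21 ± 0.20. Polymerase alpha and its primase partner thus lay on different sides of the threshold, and the difference between them was not tested.

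For nucleotide supply, both subunits of ribonucleotide reductase fell in both sources and thymidylate synthase passed in neither. Rrm2, the small subunit, was at 399, 452 and 394 CPM in WT and 247, 194 and 182 CPM in ETV6-RUNX1 fetal liver. In bone marrow it was at 459, 489.6 and 605 CPM in WT and 389.8, 233 and 324 CPM in ETV6-RUNX1. Both pairs of groups were separate, with log2 fold changes of -1.01 ± 0.18 (limma adjusted p = 0.000559) and -0.73 ± 0.18 (adjusted p = 0.0132). Rrm1, the large subunit, was at 429, 470.4 and 334 CPM in WT and 295, 261 and 189 CPM in ETV6-RUNX1 fetal liver, and at 426, 607 and 669 CPM and 421, 263 and 335 CPM in bone marrow. Its changes were -0.73 ± 0.22 (adjusted p = 0.0143) and -0.74 ± 0.22 (adjusted p = 0.0297), although its fetal liver call was lost without WT replicate 2 (adjusted p = 0.0619) or without ETV6-RUNX1 replicate 3 (adjusted p = 0.0713). Its bone marrow call was lost without replicate 2 or 3 of either genotype there (adjusted p from 0.0512 to 0.130). Tyms, which makes thymidylate, was at 254, 267 and 275 CPM in WT and 231, 246 and 195 CPM in ETV6-RUNX1 fetal liver. The bone marrow levels were 323, 302 and 297 CPM in WT and 381, 279 and 384 CPM in ETV6-RUNX1. The fetal liver groups were separate by a small gap (-0.25 ± 0.14, adjusted p = 0.165), whereas 2 of the 3 ETV6-RUNX1 bone marrow libraries lay above all WT libraries (0.17 ± 0.14, adjusted p = 0.426).

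Chromatin assembly and maintenance genes held both the smallest p of the 40 and many that did not pass. Chaf1b, a subunit of the CAF chaperone that deposits new histones behind the fork, was at 123, 129.9 and 124 CPM in WT and 65.5, 69.8 and 66.0 CPM in ETV6-RUNX1 fetal liver. The mean went from 126 ± 3.70 CPM to 67.1 ± 2.34 CPM (SD, n = 3), a log2 fold change of -0.89 ± 0.11 (limma adjusted p = 2.53e-05). In bone marrow Chaf1b was at 212, 211 and 193 CPM in WT and 174, 155 and 182 CPM in ETV6-RUNX1, separate but closer (-0.27 ± 0.11, adjusted p = 0.101). Cdca7, partner of the remodeler HELLS in keeping DNA methylated, had the largest fall of the 40 in each source, from 265, 294 and 229 CPM to 114, 136 and 96.5 CPM in fetal liver and from 359, 373 and 379 CPM to 252, 161 and 214 CPM in bone marrow. No library overlapped, with log2 fold changes of -1.19 ± 0.17 (adjusted p = 8.01e-05) and -0.85 ± 0.17 (adjusted p = 0.0043). Nasp, a histone chaperone, was at 161, 179 and 171 CPM in WT and 97.3, 92.3 and 93.2 CPM in ETV6-RUNX1 fetal liver, and at 157, 120.0 and 148 CPM and 106, 79.4 and 110.4 CPM in bone marrow, and fell with log2 fold changes of -0.85 ± 0.14 (adjusted p = 0.000358) and -0.52 ± 0.14 (adjusted p = 0.0228).

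Casp8ap2, which takes part in making the ends of histone messenger RNAs, was at 66.9, 71.1 and 62.9 CPM in WT and 54.7, 51.6 and 53.7 CPM in ETV6-RUNX1 fetal liver, a small but separate step (-0.32 ± 0.12, limma adjusted p = 0.0491) close to the threshold. That call was lost when any library but WT bone marrow replicates 1 and 3 was left out (adjusted p from 0.0558 to 0.155). In bone marrow it was at 68.8, 71.5 and 85.3 CPM in WT and 78.5, 75.5 and 71.5 CPM in ETV6-RUNX1, fully overlapping. Slbp, which binds the stem-loop of the same messages, Uhrf1, which brings DNA methyltransferase to newly copied DNA, Hells, Ubr7, a ubiquitin ligase, and Atad2, a bromodomain ATPase, passed in neither source. Their fetal liver values were -0.35 ± 0.15, -0.30 ± 0.17, -0.28 ± 0.24, -0.17 ± 0.18 and 0.07 ± 0.23, in that order. Atad2 was the single member with a positive value in fetal liver. Cdca7 and its partner gene Hells therefore lay on different sides of the threshold in both sources, and Hells had 0.13 ± 0.24 in bone marrow.

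The repair genes had the lowest share of calls of the 6 roles in each source. Rad51ap1, a gene of homologous recombination, was at 67.6, 75.4 and 68.9 CPM in WT and 48.7, 47.8 and 36.8 CPM in ETV6-RUNX1 fetal liver. In bone marrow it was at 89.7, 80.1 and 86.9 CPM in WT and 59.2, 49.1 and 61.0 CPM in ETV6-RUNX1. It was separate in both sources (-0.67 ± 0.14, limma adjusted p = 0.00183, and -0.60 ± 0.14, adjusted p = 0.011). Exo1, a nuclease of mismatch repair and end resection, was at 65.6, 81.1 and 54.0 CPM in WT and 41.5, 39.5 and 34.3 CPM in ETV6-RUNX1 fetal liver, and at 56.9, 76.6 and 84.2 CPM and 62.8, 30.7 and 49.9 CPM in bone marrow. It fell in fetal liver (-0.77 ± 0.23, adjusted p = 0.0164), a call lost without WT replicate 2 (adjusted p = 0.0772) or ETV6-RUNX1 replicate 3 (adjusted p = 0.0573), and did not pass in bone marrow, where the ranges overlapped. Usp1, the deubiquitinase that acts on PCNA, was at 37.8, 49.6 and 41.3 CPM in WT and 39.1, 35.1 and 39.9 CPM in ETV6-RUNX1 fetal liver, overlapping (-0.16 ± 0.16). Blm and Brip1, helicases of recombination and crosslink repair, and Wdr76 had fetal liver values of -0.05 ± 0.20, -0.11 ± 0.15 and -0.14 ± 0.20 and did not pass. Ung, the uracil glycosylase, had the widest error, with 9.41, 15.0 and 20.2 CPM in WT and 36.5, 27.9 and 13.7 CPM in ETV6-RUNX1 bone marrow (0.73 ± 0.39, adjusted p = 0.2).

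Of the G1 to S genes, Ccne2 (cyclin E2, which drives entry into S phase) was at 51.1, 58.9 and 44.3 CPM in WT and 40.9, 32.8 and 30.4 CPM in ETV6-RUNX1 fetal liver, and at 55.3, 77.7 and 91.8 CPM and 67.6, 42.5 and 54.1 CPM in bone marrow. Only the fetal liver groups were separate (-0.56 ± 0.21, limma adjusted p = 0.0431; bone marrow -0.44 ± 0.21, adjusted p = 0.15), and that call was lost without WT bone marrow replicate 2, WT fetal liver replicate 1 or 2, or ETV6-RUNX1 fetal liver replicate 2 or 3 (adjusted p from 0.0528 to 0.15). E2f8, an E2F family repressor that is itself an S phase gene, was at 64.1, 56.0 and 44.8 CPM in WT and 42.7, 41.9 and 28.9 CPM in ETV6-RUNX1 fetal liver. The bone marrow levels were 46.4, 80.4 and 99.7 CPM in WT and 48.9, 42.2 and 35.7 CPM in ETV6-RUNX1. It was called in bone marrow (-0.77 ± 0.25, adjusted p = 0.0442) although WT replicate 1 lay within the ETV6-RUNX1 range, and not in fetal liver (-0.53 ± 0.25, adjusted p = 0.0971), where the groups were separate.

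**Figure D2:**
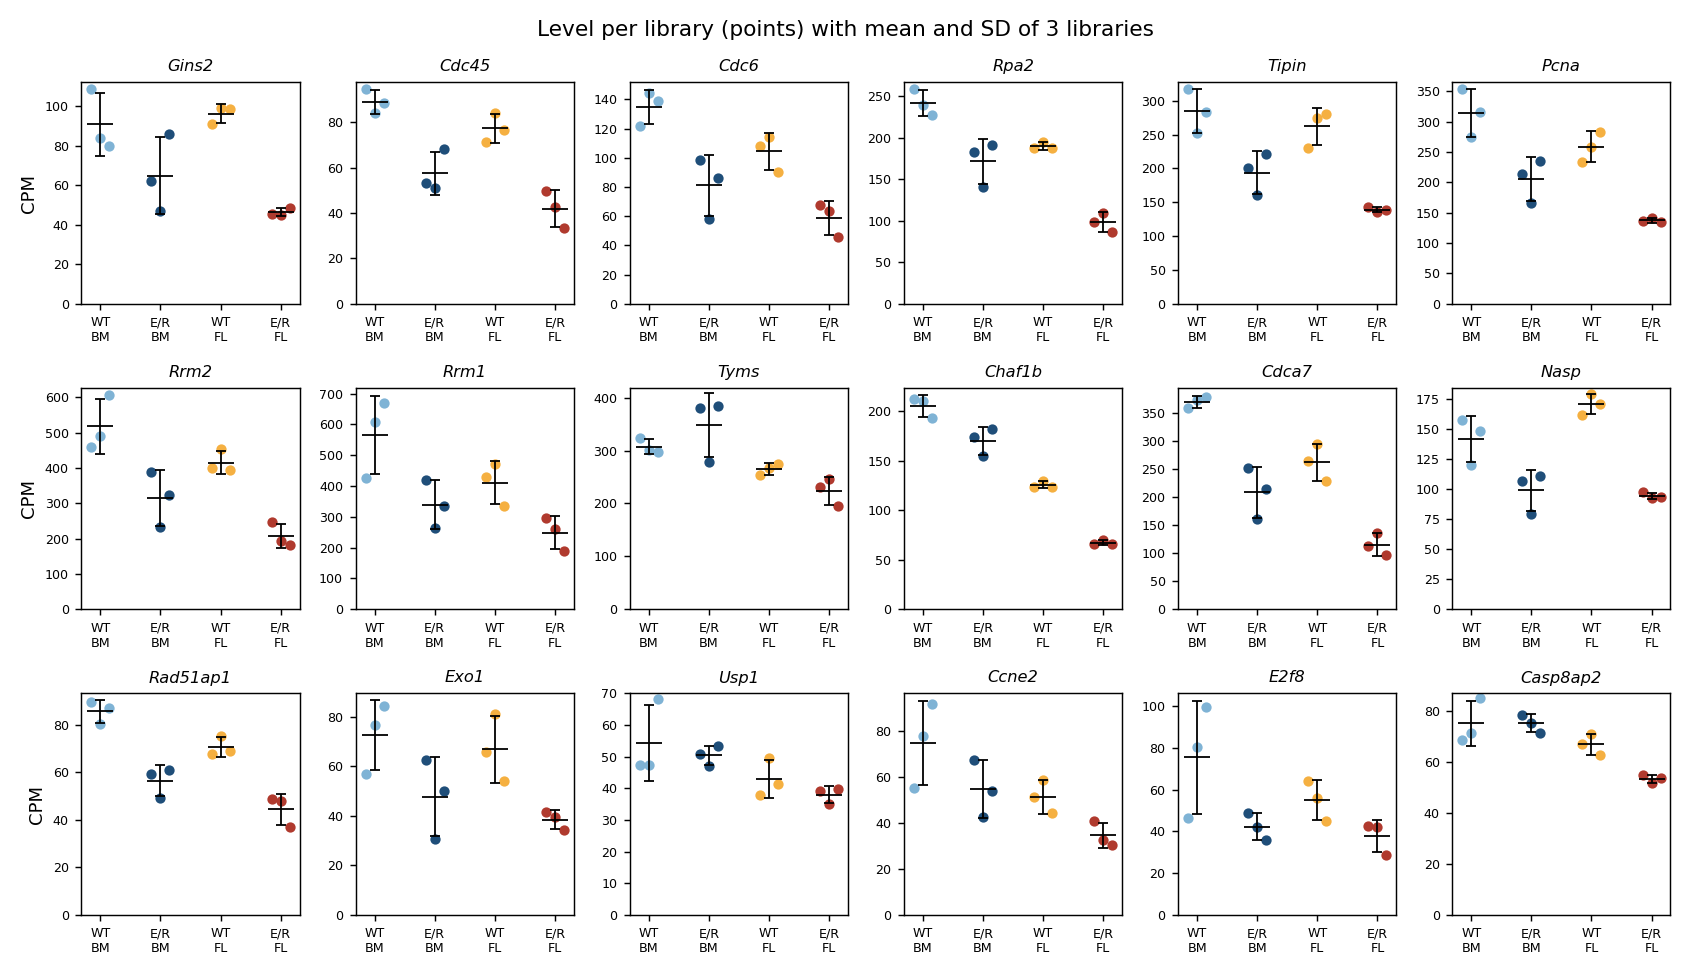
CPM per library (vertical axes, each from 0) of 18 of the 40 genes, for WT and ETV6-RUNX1 (E/R) libraries from bone marrow (BM) and fetal liver (FL); points are libraries in replicate order, and lines are the mean and SD of 3. The panels are the 3 genes of each role with the smallest p in fetal liver (both G1 to S genes), and Casp8ap2. In fetal liver the 3 ETV6-RUNX1 points lie under all 3 WT points in 17 of the 18 panels, the exception being Usp1. That choice of panels favors separate groups, which 24 of all 40 genes and 23.3% of all genes tested had in this direction.

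Compared per kilobase of annotated exon, the most abundant of the 40 in WT bone marrow were Rrm2 (187 CPM per kb), Tipin (152), Pcna (131) and Mcm5 (121), and the least abundant Ung (2.72) and Blm (4.27). Rrm2 and Tipin also headed the order in ETV6-RUNX1 fetal liver, at 74.9 and 74.5 CPM per kb.

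The difference between the effects in the 2 sources was tested as an interaction, which asks whether the change with ETV6-RUNX1 in fetal liver differed from that in bone marrow. Chaf1b alone passed, with 1 of the 40 called, against 9.19% of all genes in either direction, 3.62% in this one and 5.56% in the other. Its fetal liver change minus its bone marrow change was -0.62 ± 0.16 (SE, log2; limma adjusted p = 0.0247). The call held in 12 of 23 alternative analyses, over which its adjusted p ran from 0.00375 to 0.116, and was lost without WT bone marrow replicate 2 or 3, ETV6-RUNX1 bone marrow replicate 1 or 3, WT fetal liver replicate 2 or 3, or ETV6-RUNX1 fetal liver replicate 1 (adjusted p from 0.0517 to 0.0681). The fetal liver change was the more negative for 29 of the 40, as for 54.2% of all genes tested, and the median interaction was -0.25, against -0.05 over all genes tested. The medians of the 40 in fetal liver and bone marrow were closer together under some scalings. They were -0.67 and -0.55 with median-of-ratios scaling, -0.69 and -0.57 with edgeR, -0.66 and -0.56 with DESeq2, and -0.68 and -0.47 with quantile normalization. For the 10 genes called in fetal liver alone, Chaf1b apart, no difference between the sources was shown; the interaction of Gins2, for example, was -0.53 ± 0.26 (adjusted p = 0.214), that of Fen1 -0.82 ± 0.36 (adjusted p = 0.158) and that of Mcm2 -0.46 ± 0.26 (adjusted p = 0.28).

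Fetal liver and bone marrow HSCs were then compared within each genotype. These comparisons use the same libraries as those above and are not independent of them. In WT, 2 of the 40 were lower in fetal liver (7.77% of all genes were) and 0 higher (3.38%), with a median of -0.26 against -0.07 over all genes. The libraries of the 2 sources did not overlap for 12 genes lower in fetal liver (18.9% of all genes) and for 1 gene, Nasp, higher there (10.6%). Chaf1b was lower, with a log2 fold change of -0.70 ± 0.11 (limma adjusted p = 0.000802) as was Brip1, with -0.52 ± 0.15 (adjusted p = 0.0397); Nasp, at 0.27 ± 0.14, was the member with the highest value and did not pass. Without WT bone marrow replicate 1, 12 of the 40 were called lower in WT, against 14.53% of all genes. Leaving out any of 7 other libraries (WT bone marrow replicate 2 or 3, any WT fetal liver replicate, replicate 1 of either ETV6-RUNX1 group) ended the call of Brip1 and left Chaf1b (1 gene). In those fits 4.12% to 7.65% of all genes were called lower. In ETV6-RUNX1 cells, 14 of the 40 were lower in fetal liver and 0 higher, where 18.2% of all genes were lower and 10.4% higher. The median was -0.44 against -0.16 over all genes, and 24 genes did not overlap, all lower in fetal liver (27.8% of all genes were lower and 14.4% higher without overlap). Chaf1b had the smallest p (-1.33 ± 0.11, adjusted p = 1.11e-06), followed by Rpa2 (-0.79 ± 0.14, adjusted p = 0.000711) and Cdca7 (-0.84 ± 0.17, adjusted p = 0.00208). With median-of-ratios scaling, under which the median of all genes was close to 0, 5 of the 40 were called and the background was 10.2%, and Chaf1b, Rpa2 and Cdca7 were among them. The count was 8 without ETV6-RUNX1 bone marrow replicate 1 or fetal liver replicate 2, where 12.1% and 13.1% of all genes were called lower. It was 9 without bone marrow or fetal liver replicate 3 of that genotype, where 15.4% and 16.7% of all genes were.

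**Figure D3:**
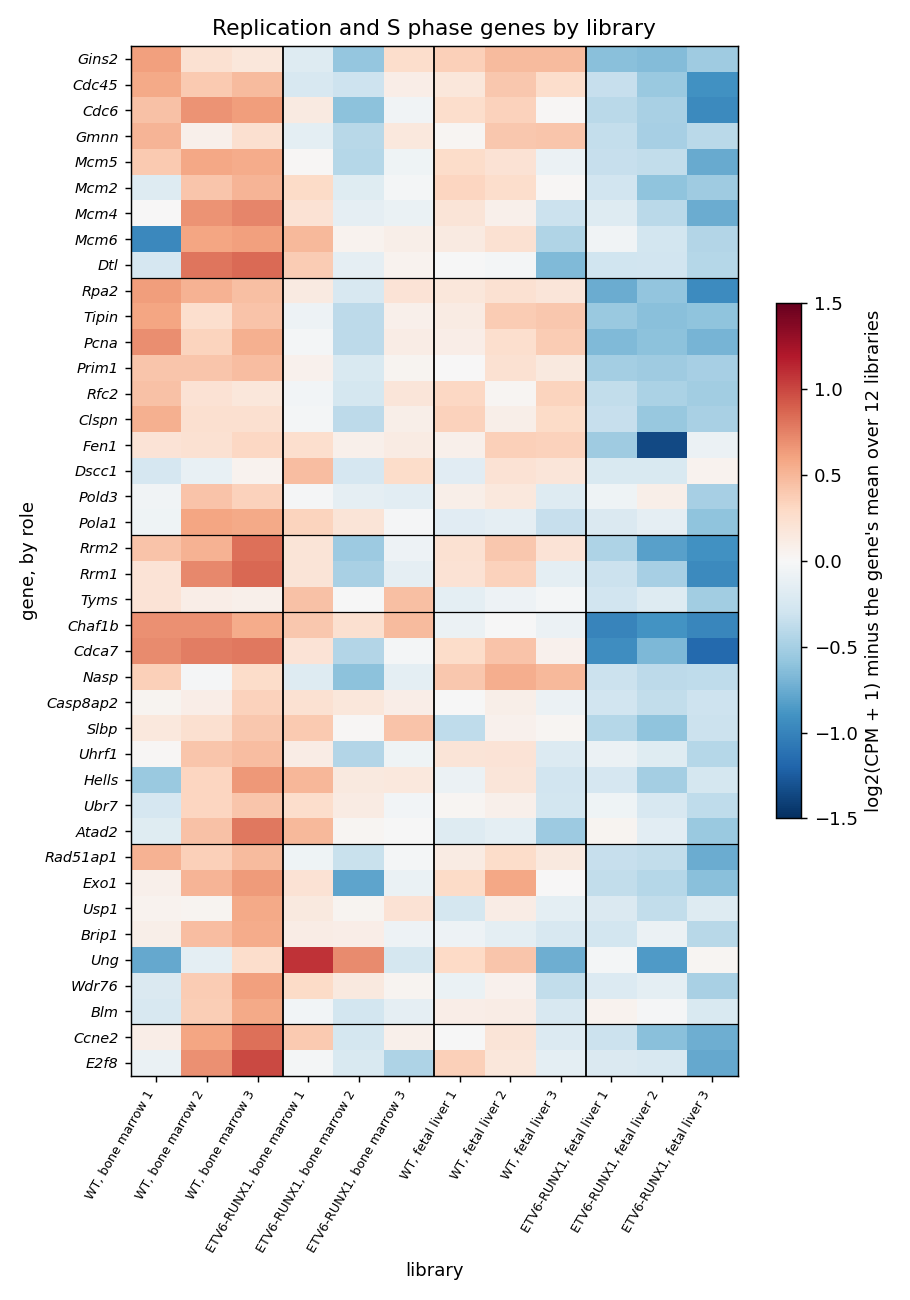
Level of each of the 40 genes (rows, by role) in each library (columns), as log2(CPM + 1) minus the gene's mean over the 12 libraries; red is above and blue below the mean. The 3 ETV6-RUNX1 fetal liver columns are blue for nearly all genes (38, 39 and 38 of 40 below their mean), and the WT bone marrow columns are mostly red, with replicate 1 differing from the other 2 for genes such as Mcm6, Dtl and Hells.

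Libraries of 1 group differed in their pattern over the 40 genes. In WT bone marrow replicate 1, 26 of the 40 had the lowest value of the group and 12 the highest. Mcm6 was at 173 CPM there and at 511 and 519 CPM in the other WT bone marrow libraries, and Dtl at 51.9 against 109.5 and 113 CPM. In the opposite direction, Gins2 was at 109 CPM against 83.6 and 79.8 CPM and Pcna at 354 against 275 and 315 CPM. ETV6-RUNX1 bone marrow replicate 2 was instead low throughout, lowest for 31 genes and highest for 0. Within WT fetal liver, replicate 2 was the highest for 28 genes and replicate 3 the lowest for 23. In ETV6-RUNX1 fetal liver, replicate 1 was the highest for 23 and replicate 3 the lowest for 25. The median coefficient of variation of the 40 genes was 15.8% and 16.2% in WT and ETV6-RUNX1 bone marrow and 12.6% and 11.9% in WT and ETV6-RUNX1 fetal liver.

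Exon length moved with these patterns. Genes called lower in fetal liver had a median annotated exon length of 4045 bases and those not called 5772 bases. Across the 40 genes, which are not independent replicates and share the same libraries, the fetal liver fold change and log2 length had a Pearson r of 0.51 and a Spearman rho of 0.51, against 0.20 and 0.28 across 14264 tested genes. In bone marrow the medians were 3868 and 6076 bases, with an r of 0.17 and a rho of 0.22, against 0.003 and 0.03 across the 14264 genes. The deviation of a library from its group mean also followed length, with an r across the 40 genes of -0.47 in WT bone marrow replicate 1 and of 0.43 and 0.41 in replicates 2 and 3, and of 0.48, 0.08 and -0.41 in WT fetal liver replicates 1 to 3. Across the 14264 tested genes r was close to these values, at -0.46, 0.35 and 0.30 in WT bone marrow and 0.40, 0.05 and -0.45 in WT fetal liver. The trend was thus not particular to the 40. When each library's straight-line relation to exon length was removed, an analysis added after the data were seen, 34 of the 40 were called lower in fetal liver (26.5% of all genes) and 25 in bone marrow (13.5%), 40 and 38 of the 40 values were negative, and the medians were -0.77 and -0.57. Hells, Dtl, Mcm4, Tyms, Slbp and Uhrf1 were among the fetal liver genes that passed with this step and not without it. What underlies this relation was not tested.

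**Figure D4:**
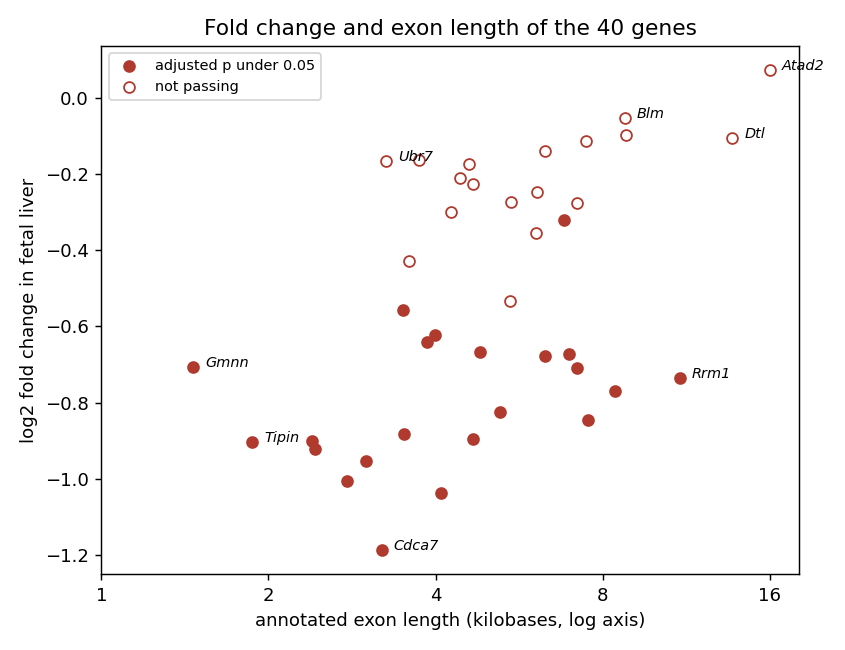
Log2 fold change of ETV6-RUNX1 minus WT in fetal liver (vertical axis) against annotated exon length in kilobases (horizontal log axis) for the 40 genes; filled points have a limma adjusted p under 0.05. Short genes such as Tipin and Cdca7 lie low, and the longest, Atad2 and Dtl, lie near 0, with Rrm1 a long gene that fell.

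Other genes of the pathway, 96 genes in 6 lists that do not include the 40, were all tested. In fetal liver 42 fell and 4 rose (median -0.40), where 18.3% of all genes were called lower and 24.8% higher. In bone marrow 24 fell and 3 rose (median -0.22), against 4.93% and 14.4% of all genes. The bone marrow counts were 11 and 2 without WT replicate 2 (3.30% and 11.2% of all genes), 11 and 1 without WT replicate 3 (3.19% and 11.4%), and 4 and 1 without ETV6-RUNX1 replicate 2 (2.24% and 8.42%). Of 22 other licensing and helicase genes, 8 fell and 1 rose in fetal liver; the smallest p belonged to Orc5 (-0.92 ± 0.13, limma adjusted p = 8.57e-05) and Orc6 (-0.88 ± 0.14), subunits of the origin recognition complex, and Gins1 (-0.92 ± 0.17). Mcm3 and Mcm7, the other ring subunits called, fell with log2 fold changes of -0.68 ± 0.16 and -0.74 ± 0.15 there and of -0.62 ± 0.16 and -0.58 ± 0.15 in bone marrow, where both calls were lost without ETV6-RUNX1 replicate 2 (adjusted p = 0.0701 and 0.0757) and that of Mcm3 also without WT replicate 2 (adjusted p = 0.0512). Donson, a fork protein, was the gene that rose (0.63 ± 0.22, adjusted p = 0.0317), a call lost without WT replicate 1 or 3 or ETV6-RUNX1 replicate 1 or 3 of fetal liver (adjusted p from 0.0527 to 0.135), and with quantile normalization (0.168) or edgeR (0.0559). Cdt1, the loader that geminin inhibits, was at 25.4, 25.9 and 29.1 CPM in WT and 59.6, 51.8 and 32.9 CPM in ETV6-RUNX1 bone marrow, and at 36.0, 33.7 and 24.7 CPM and 19.0, 16.2 and 27.6 CPM in fetal liver. It rose in bone marrow (0.78 ± 0.23, adjusted p = 0.0316) and had -0.58 ± 0.23 in fetal liver, with an interaction of -1.36 ± 0.33 (adjusted p = 0.0204). The bone marrow call was lost without any 1 of the WT replicates or without ETV6-RUNX1 replicate 1 or 2 (adjusted p from 0.0521 to 0.126), and the interaction without WT replicate 2 or ETV6-RUNX1 replicate 1 of bone marrow, or WT replicate 2 or ETV6-RUNX1 replicate 1 or 2 of fetal liver (adjusted p from 0.051 to 0.055). The annotated gene Gm20388 overlaps Cdt1.

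The other polymerase, clamp and fork list had the most calls, with 15 of 23 lower and 0 higher in fetal liver. Rnaseh2a, the catalytic subunit of RNase H2, Pold2, a polymerase delta subunit, and Rfc4 of the clamp loader fell in fetal liver with log2 fold changes of -1.11 ± 0.12, -1.13 ± 0.14 and -1.13 ± 0.14. Pold2 was at 110.1, 142 and 132 CPM in WT and 57.9, 57.2 and 57.4 CPM in ETV6-RUNX1 fetal liver, and at 125, 117 and 123 CPM and 124, 104 and 145 CPM in bone marrow, where the ranges overlapped. Its interaction was -1.15 ± 0.20 (limma adjusted p = 0.0025). Pold4, another subunit of the same polymerase, rose in bone marrow (0.61 ± 0.16, adjusted p = 0.0191), a call lost with median-of-ratios scaling (0.0944), edgeR (0.0859) or DESeq2 (0.0692) and without WT replicate 3 or ETV6-RUNX1 replicate 2 or 3 (adjusted p from 0.0566 to 0.0764); its symbol is carried by 2 gene IDs, of which the one with more reads was used. Timeless, the partner of Tipin, fell in both sources (-0.57 ± 0.12 and -0.58 ± 0.12).

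Among 12 other nucleotide genes, 9 fell and 1 rose in fetal liver. Dctd, which makes the precursor of thymidylate, fell with a log2 fold change of -1.59 ± 0.20 (limma adjusted p = 2.99e-05), from 78.8, 80.8 and 70.6 CPM to 17.9, 29.3 and 29.1 CPM, and Shmt1, a folate enzyme of thymidylate synthesis, fell with -1.13 ± 0.14. The gene that rose was Samhd1, the triphosphohydrolase that breaks down deoxynucleotides. Samhd1 was at 65.1, 69.5 and 59.8 CPM in WT and 398, 253 and 361 CPM in ETV6-RUNX1 fetal liver, and at 76.0, 74.7 and 69.3 CPM and 108, 147 and 138 CPM in bone marrow. The groups were separate in both sources, with rises of 2.34 ± 0.17 (adjusted p = 1.02e-07) and 0.82 ± 0.17 (adjusted p = 0.00481), and the rise was larger in fetal liver (interaction 1.52 ± 0.24, adjusted p = 0.00124). Samhd1 moved against the 9 genes of its list that fell. It is also known as an interferon-inducible gene.

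In the other lists, fewer genes passed, and their counts in fetal liver stand against the 18.3% of all genes called lower and 24.8% called higher. Of 12 other chromatin genes 2 fell, a share under that of all genes, namely the histone chaperone gene Asf1b (-1.12 ± 0.17, limma adjusted p = 0.000126) and the histone acetyltransferase gene Hat1 (-0.50 ± 0.14). Of 10 S phase checkpoint genes 3 fell, Rad1 (-1.21 ± 0.14, adjusted p = 9.94e-06), a subunit of the checkpoint clamp, Chek1 (-0.67 ± 0.16), the checkpoint kinase that claspin helps to activate, and Cdc25a (-0.44 ± 0.15), the phosphatase it restrains. The call of Cdc25a was lost without any 1 of the WT fetal liver replicates or ETV6-RUNX1 replicate 3 (adjusted p from 0.0542 to 0.0996). Of 17 other E2F and G1 to S genes 5 fell and 2 rose. Mybl2 (-1.11 ± 0.19) and Tfdp1 (-0.87 ± 0.16), the latter a dimer partner of E2F factors, fell, while Rb1 (1.02 ± 0.22, adjusted p = 0.00205) and Rbl2 (0.83 ± 0.30, adjusted p = 0.0376), pocket proteins that hold E2F targets silent, rose. The call of Rbl2 was lost without WT replicate 2 or 3 or ETV6-RUNX1 replicate 1 or 2 of fetal liver (adjusted p from 0.0656 to 0.164), while that of Rb1 held in each of the 24 alternatives. E2f1, E2f2, E2f3 and E2f7 had fetal liver values of 0.03 ± 0.18, 0.13 ± 0.23, 0.03 ± 0.21 and 0.03 ± 0.20 and did not pass. In bone marrow Rb1 had 0.04 ± 0.22 and the difference between the sources did not pass (interaction 0.99 ± 0.31, adjusted p = 0.0618).

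**Figure D5:**
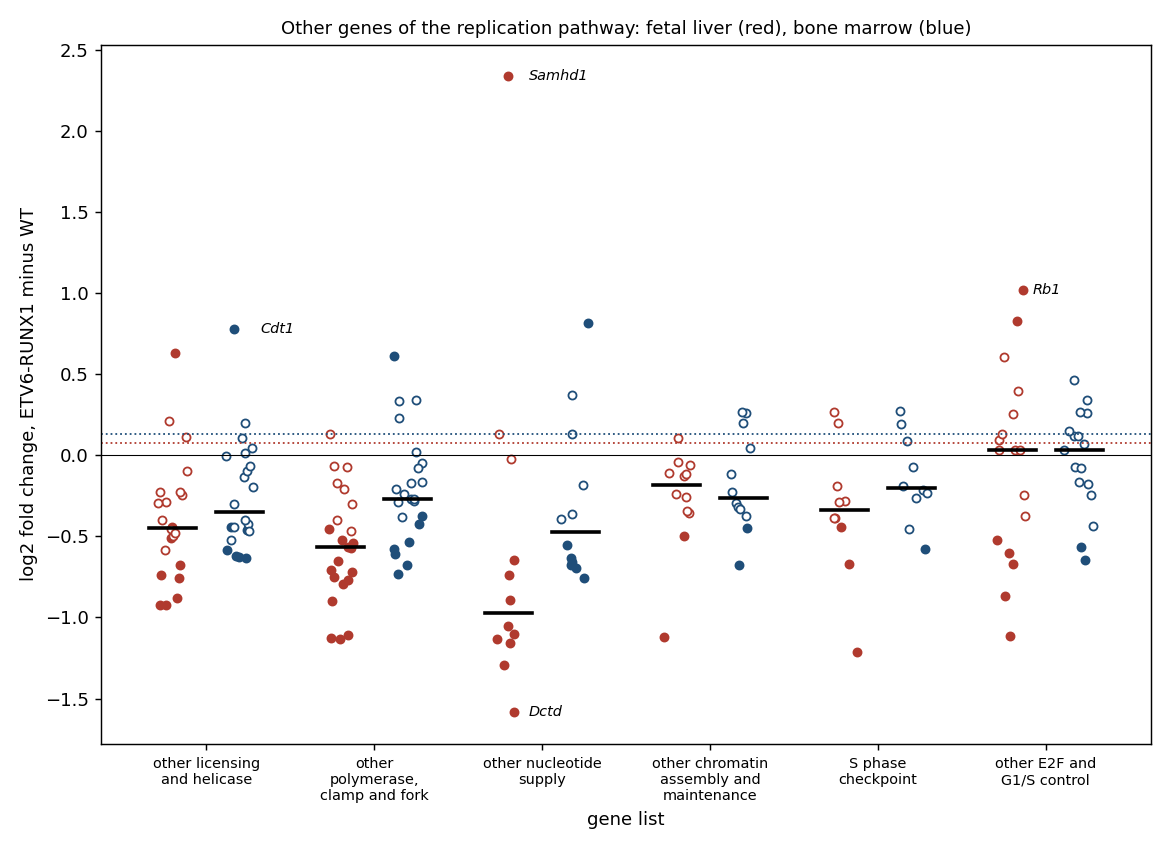
Log2 fold change of ETV6-RUNX1 minus WT for 96 other genes of the pathway (points) by list (horizontal axis), in fetal liver (red) and bone marrow (blue); filled points have a limma adjusted p under 0.05, black bars are list medians and dotted lines the medians of all genes tested (0.08 and 0.13). Samhd1 lies far above the rest of its list, whose fetal liver median is the lowest.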

How the data were processed

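The authors deposited 1 table of CPM per gene for 12 libraries. Libraries were made with a stranded total RNA kit for small inputs, per the labels' protocols. Per the submitters' processing notes, STAR 2.5.1a, featureCounts 1.4.6-p5, Salmon 0.8.2, edgeR, limma and GRCm38 were used; which annotation was counted, and whether by strand, is not given in the sources used here, so reads of overlapping genes cannot be told apart (14 of the 40 members overlap a gene on the opposite strand). All deposited CPM values (100%) were whole multiples of 1 read (tolerance 0.01), which gave back read counts and totals; 276 repeated entries were dropped.

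CPM values were tested as log2(CPM + 1), so fold changes of low genes are understated, in the 14271 genes that reached 1 CPM in 3 or more libraries. The test was limma 3.58.1 (4 group means, trend, two-sided, 8 residual degrees of freedom), with Benjamini-Hochberg adjustment over all genes tested and a threshold of 0.05, in R 4.3.3. There were 5 comparisons: genotype within each source, the difference between those effects, and source within each genotype. Alternatives included edgeR 4.0.16 and DESeq2 1.42.0 on the recovered counts, other scalings, filters, a replicate block, each library left out, and 2 added after the data were seen (exon length and pseudogene share). The script was tested on simulated data. Exon lengths and positions came from GENCODE on GRCm38.

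The members and lists were chosen with earlier results of these data known. Members with their values by library were the 3 with the smallest fetal liver p in each role, those called in the interaction, and those opposite in sign between sources with a call in either. Library values of Gmnn, Mcm6, Dtl, Fen1 and Ung, in some of the groups, were given outside that rule. In the other lists, the 3 called with the smallest p and those called against the list's median were named, with others beside them chosen after their values were seen.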

Additional observations from a re-analysis of the deposited data

Results flagged for a closer look

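In 8 genes, the effect of ETV6-RUNX1 differed between fetal liver and bone marrow by the test of the difference (limma interaction, adjusted p under 0.05 over all genes tested). They were 1 of the 40 members and 7 of the 96 others (6 negative and 1 positive). Among all genes tested 9.19% passed, 3.62% with a negative and 5.56% with a positive value. Each value below is the fetal liver minus the bone marrow effect on the log2 scale. Chaf1b (-0.62) was the only one of the 40 members. Among the other pathway genes, Pold2 (-1.15), Rnaseh2c (-1.03), Rnaseh2a (-0.73), Ctps (-0.93) and Rad1 (-0.95) had a fetal liver effect below the bone marrow effect. For Cdt1 the difference was -1.36, with a rise in bone marrow and a negative value that did not pass in fetal liver. For Samhd1 it was 1.52, with a rise in both sources. With 3 libraries a group, no group was tested for single outlying libraries.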

How the results depend on the processing

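No call, among the 40 genes or the 96 others, changed its direction in 24 alternatives. The count of members called lower in fetal liver lay between 18 and 24 with single libraries left out, where 14.1% to 19.5% of all genes were called lower. It became 34 (median -0.77) with the exon length trend removed (26.5% of all genes). Of the 22 calls, 17 held in every alternative. The bone marrow count was 24 (median -0.55) with median-of-ratios scaling, 23 (-0.57) with edgeR and 25 (-0.56) with DESeq2. In those fits 9.79%, 9.49% and 11.1% of all genes were called lower, in that order. The count was 25 (-0.57) with the length trend removed (13.5% of all genes) and 7 with only the 6 libraries compared (2.18%). With single libraries left out it was 2 to 18 (2.24% to 5.23%). Cdca7 and Pcna held throughout, but no alternative joined the reads of Pcna with those of its pseudogene Pcna-ps2. The interaction count was 0 with median-of-ratios scaling, the replicate block, edgeR (at an adjusted p of 0.0598 for Chaf1b) or the pseudogene covariate. In those fits 3.83% to 9.54% of all genes were called. It was 3 with array weights (25.5% of all genes), and 0 to 2 with single libraries left out (5.12% to 16.3%). Fetal liver against bone marrow in WT gave 1 with no filter, median-of-ratios, quantile normalization, the replicate block, edgeR or the length trend removed. In those fits 3.75% to 11.8% of all genes were called. Array weights gave 15 (14 lower and 1 higher, where 30.8% of all genes were called against 11.1% without the weights). DESeq2 gave 4 (14.9% of all genes), and single libraries left out gave 1 to 12 (6.08% to 19.5%). In ETV6-RUNX1 cells this comparison gave 9 with no filter, 5 (median -0.27) with median-of-ratios, 5 with edgeR and 6 (-0.29) with DESeq2. Called lower in those fits were 7.32%, 10.2%, 9.57% and 11.6% of all genes, in that order. The median was -0.59 with the pseudogene covariate. Single libraries left out gave 8 to 20, where 11.5% to 20.9% of all genes were called lower. The calls among the 96 other pathway genes numbered 33 to 67 in fetal liver and 5 to 40 in bone marrow over all alternatives. The lowest counts came without WT fetal liver replicate 2 (35.1% of all genes called) and without ETV6-RUNX1 bone marrow replicate 2 (10.7%). The highest came with the length trend removed (44.6% and 23.9% of all genes). The cause of these shifts was not tested.

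Replicate numbers are shared across groups, but same-numbered libraries did not deviate together (correlations from -0.44 to 0.39, and 1 of 12 libraries correlated best with its own number). With the replicate block the counts were 20 in fetal liver, 13 in bone marrow, and 1 and 12 for fetal liver against bone marrow in WT and ETV6-RUNX1. Quantile normalization moved the median of all genes in fetal liver from 0.08 to -0.10 and the share called lower from 18.3% to 26.2%. The fit on only the 6 libraries compared could not be made for the interaction and was not run for medians. With 3 libraries a group and CPM far above the floor, the spread between libraries and not depth set the precision.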
